A study of Mus musculus with 11 samples.

Results

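Tuft cells are rare chemosensory cells of the gut epithelium, and the 9 genes described here (Dclk1, Trpm5, Pou2f3, Alox5ap, Ptgs1, Avil, Sh2d6, Plcg2 and Kctd12) are genes by which they are recognised. The genes were chosen by name, with earlier results of these data known. A gene was taken as measured where a row of the table of a tissue carries its name. In IECs of the Vil-Ogt KO ileum all 8 listed tuft cell genes had lower mRNA levels than in WT, with Dclk1 29.4-fold and Pou2f3 11.2-fold lower. Dclk1 and Pou2f3 were under 1 FPKM in WT already. Of all named genes of the ileum 52.8% were lower by any amount, and 53.7% of those in the level range of the tuft cell genes. In the colon 5 of the 9 genes were listed and no common direction was seen: Trpm5 was 2.35-fold lower, Avil was 4.26-fold higher, and the other 3 were within 2-fold of WT. The tables hold 12675 named genes for the ileum and 12831 for the colon.

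The study deleted Ogt, the X-linked gene of the enzyme that puts O-GlcNAc on nuclear and cytosolic proteins, from floxed alleles with Cre under the Villin promoter, which is active throughout the intestinal epithelium and so also in the lineage of tuft cells. RNA came from male mice aged 10 weeks, and 11 libraries were made: for the ileum 2 from WT and 3 from Vil-Ogt KO mice, for the colon 3 from each genotype. IECs were released with EDTA, which also brings along lymphocytes lodged between epithelial cells; the protocol has equal RNA amounts pooled to build the cDNA libraries. The number of mice behind each, and whether WT mice carried Cre or floxed alleles, are not given in the sources used here. The authors' deposited tables give 1 level per genotype and tissue in log2 FPKM (fragments scaled to transcript length and to the total of mapped fragments, so that levels of genes of different length can be compared), and no level per library. No level or difference below therefore has an error or a p-value, and a difference past 2-fold, the size threshold of the study, is a description of these 2 values. The 2 tables were normalized separately. For Ogt itself the log2 difference of Vil-Ogt KO minus WT was -1.42 (ileum) and -1.99 (colon). The epithelial genes Krt8 and Vil1 stood at log2 FPKM 12.00 and 8.53 in the WT ileum and at 11.89 and 8.17 in the WT colon.

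Tuft cells taste the gut lumen. Receptors coupled to G proteins raise calcium in the cell, calcium opens the cation channel Trpm5, and the cell releases IL-25, leukotrienes, prostaglandins and acetylcholine. IL-25 and leukotrienes act on type 2 innate lymphoid cells, whose IL-13 in turn directs epithelial progenitors towards tuft and goblet fates, the loop by which the small intestine meets helminths and protists. Pou2f3 is the transcription factor without which tuft cells do not form in mice.

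Start regions are shown for 4 of the genes on which the results turn: Dclk1 for the strongest difference in the ileum, Trpm5 and Kctd12 as genes that were lower in both tissues, and Avil, which with Plcg2 differed in direction between the tissues, as the larger difference of the pair. Each run covers 250 bases before and 50 bases after an annotated start (RefSeq, GRCm38.p6; 7 of the 9 genes matched the table), and is written 5′ to 3′ on the strand of the gene. Capitals mark matches, on either strand, to the octamer bound by POU factors (ATGCAAAT) or to the spaced palindrome bound by STAT6, which is TTC and GAA set 4 bases apart; neither motif overlaps the other in these runs. The Dclk1 region lies at chr3:55242114-55242413 on the plus strand, that of Trpm5 at chr7:143094593-143094892 on the minus strand, that of Kctd12 at chr14:102982588-102982887 on the minus strand and that of Avil at chr10:127000459-127000758 on the plus strand.
Dclk1: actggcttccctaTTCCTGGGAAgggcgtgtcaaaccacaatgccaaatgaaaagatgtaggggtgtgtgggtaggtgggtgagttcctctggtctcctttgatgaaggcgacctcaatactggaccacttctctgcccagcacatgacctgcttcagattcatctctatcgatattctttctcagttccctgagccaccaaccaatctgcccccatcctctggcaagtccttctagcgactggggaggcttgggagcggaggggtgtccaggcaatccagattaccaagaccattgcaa
Trpm5: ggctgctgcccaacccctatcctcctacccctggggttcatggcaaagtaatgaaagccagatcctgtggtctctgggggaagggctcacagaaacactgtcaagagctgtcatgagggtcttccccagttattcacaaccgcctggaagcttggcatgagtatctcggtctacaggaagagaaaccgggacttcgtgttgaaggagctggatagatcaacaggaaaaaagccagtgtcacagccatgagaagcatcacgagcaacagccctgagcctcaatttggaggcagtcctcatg
Kctd12: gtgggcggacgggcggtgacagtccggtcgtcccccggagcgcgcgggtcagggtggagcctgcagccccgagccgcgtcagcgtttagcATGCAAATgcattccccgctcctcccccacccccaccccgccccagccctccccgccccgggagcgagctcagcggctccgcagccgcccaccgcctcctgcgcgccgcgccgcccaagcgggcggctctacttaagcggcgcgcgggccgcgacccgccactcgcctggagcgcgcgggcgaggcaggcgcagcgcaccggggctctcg
Avil: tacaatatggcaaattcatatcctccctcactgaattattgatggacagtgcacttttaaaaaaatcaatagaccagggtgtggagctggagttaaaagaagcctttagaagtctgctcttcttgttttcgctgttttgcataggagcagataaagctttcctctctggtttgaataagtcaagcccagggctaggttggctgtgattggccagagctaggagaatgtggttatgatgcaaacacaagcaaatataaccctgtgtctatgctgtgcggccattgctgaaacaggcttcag

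Among these 4 runs the octamer was present in Kctd12 and the STAT6 palindrome in Dclk1, as TTCCTGGGAA. Of all 32851 start regions of this length (those of chromosome 18 left aside), 1.74% hold the octamer and 6.95% the palindrome. The regions of Ptgs1 and Sh2d6 and the second annotated start of Dclk1 held neither motif, and that of Plcg2 held the palindrome. A match of letters is a description of the window and not a bound site.

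Pou2f3, the fate-determining transcription factor, had log2 FPKM -0.28 in the WT ileum and -3.77 in the Vil-Ogt KO ileum. In linear terms this is 0.824 against 0.0733 FPKM, so that 8.90% of the WT level was left. The difference of -3.49 was the 156th lowest of the 12675 named genes. On a scale of log2(FPKM + 1) it was -0.76, within 2-fold, and the number of reads behind so low a level is not given. The gene lies at chr9:43123939-43205755 (mm10, minus strand).

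Dclk1 encodes a microtubule-associated kinase that marks tuft cells in the mouse gut. It stood at log2 FPKM -0.57 in the WT ileum and at -5.45 in the Vil-Ogt KO ileum. With 3.40% of the WT level left, its difference of -4.88 was the 59th lowest of all named genes, and 31 named genes had a lower level than Dclk1 in the Vil-Ogt KO ileum. A level this low (0.0229 FPKM) rests on few reads, whose number the table does not give. The locus listed for Dclk1, chr3:55242526-55539068 on the plus strand, begins a little downstream of the first annotated start and includes the second, so long and short transcripts are not separated.

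Trpm5, the cation channel of the taste cascade, was lower in both tissues. Ileal log2 FPKM was -0.43 in WT against -2.17 in Vil-Ogt KO, and the colonic values were -1.11 and -2.34. The differences of -1.74 and -1.23 are 3.34-fold and 2.35-fold. Trpm5 was the only one of the listed genes that was past 2-fold in the same direction in both tissues. It lies at chr7:143071529-143094642 on the minus strand, and no other annotated gene overlaps it.

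Eicosanoid synthesis is represented by Alox5ap, which hands arachidonic acid to 5-lipoxygenase for leukotriene synthesis, and by Ptgs1, the constitutive cyclooxygenase of prostaglandin synthesis. Alox5ap had log2 FPKM 1.26 in the WT ileum and -0.18 in the Vil-Ogt KO ileum, a difference of -1.44. In the colon it had -0.58 and -0.77, a difference of -0.19. Alox5ap was thus 2.71-fold lower in the ileum and within 2-fold of WT in the colon. Ptgs1 was the lowest of the listed genes in the WT ileum, at -1.34, and stood at -2.03 in Vil-Ogt KO, a difference of -0.69 that stays within 2-fold; it was not listed for the colon.

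Avil encodes advillin, an actin-bundling protein of the villin family. Its ileal log2 FPKM was 0.34 in WT against -0.59 in Vil-Ogt KO, a difference of -0.93. In the colon it had -0.86 in WT against 1.23 in Vil-Ogt KO, a difference of 2.09. Avil was the only listed gene past 2-fold in the higher direction, and 2.42% of the named genes of the colon had a larger positive difference. The locus of Avil (chr10:127000709-127020994, plus strand) overlaps Tsfm, a mitochondrial translation factor gene on the minus strand, over 165 exonic bases in GENCODE M21. Tsfm was the more abundant, with ileal log2 FPKM of 5.43 (WT) and 4.93 (Vil-Ogt KO) and colonic values of 4.83 and 4.98. Use of strand in the counting is not given in the sources used here, and the part of Tsfm reads in the Avil level was not tested.

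Plcg2, a phospholipase C that also serves the B cell receptor, and Kctd12, an auxiliary subunit of GABA-B receptors, were the most abundant of the genes in the WT of both tissues and in the Vil-Ogt KO ileum, while in the Vil-Ogt KO colon Avil stood above Plcg2. Kctd12 had ileal log2 FPKM of 3.01 (WT) and 1.87 (Vil-Ogt KO), and colonic values of 2.94 and 2.15. Its differences were -1.14 and -0.79, lower in both tissues and past 2-fold in the ileum. Plcg2 had ileal values of 3.07 and 2.77 and colonic values of 0.68 and 0.91, so its differences of -0.30 and 0.23 stayed within 2-fold. Neither gene is restricted to tuft cells. Kctd12 (chr14:102976581-102982637, minus strand) shares 3805 exonic bases with the long non-coding RNA gene Gm26778 on the other strand, which neither table lists. Annotated genes on the other strand also touch exons of Dclk1, Alox5ap and Ptgs1, over 87, 189 and 148 bases at most, and none of them is listed.

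**Figure D1:**
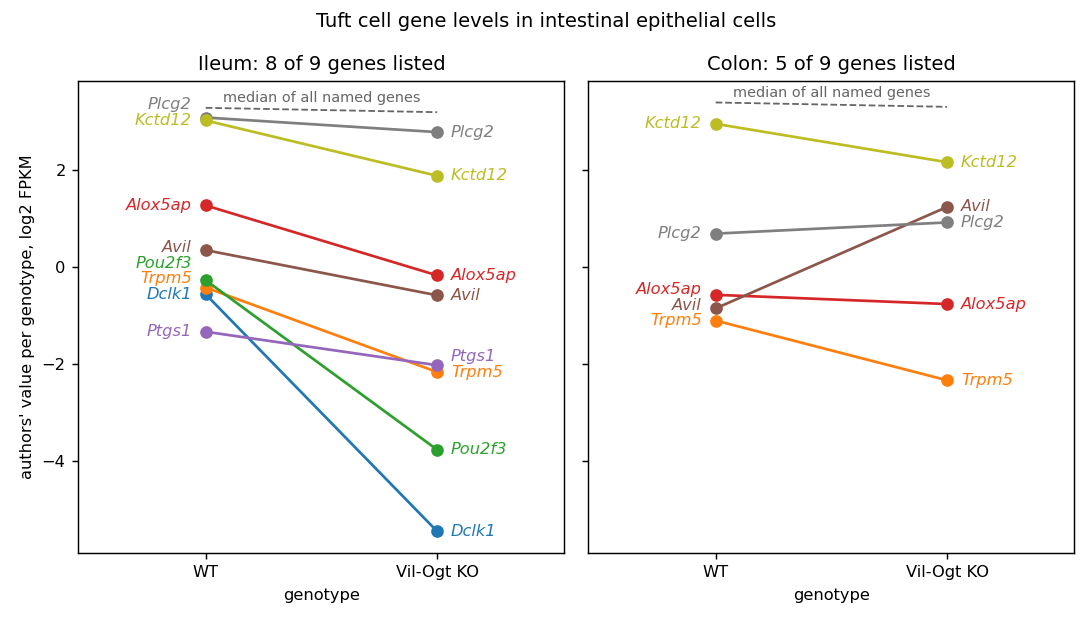
Levels of the tuft cell genes in log2 FPKM (vertical axis) for WT and Vil-Ogt KO (horizontal axis) in ileum and colon; a point is the authors' 1 value for a genotype and the dashed line the median of all named genes. All 8 lines slope down in the ileum, most steeply for Dclk1 and Pou2f3, whereas in the colon Avil and Plcg2 slope up.

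Sh2d6, an SH2 domain adaptor of tuft cells, was listed in neither table, and Dclk1, Pou2f3 and Ptgs1 were absent from the table of the colon. The tables hold only loci to which the authors' software gave the status OK, so an absent gene has no value here and is not a gene at 0. The listed genes were low in abundance: all 8 in the ileum and all 5 in the colon lay below the WT median of named genes (log2 FPKM 3.27 and 3.38), and 4 of 8 and 3 of 5 were under 1 FPKM in WT. In the WT ileum the order from high to low was Plcg2, Kctd12, Alox5ap, Avil, Pou2f3, Trpm5, Dclk1 and Ptgs1. In the WT colon it was Kctd12, Plcg2, Alox5ap, Avil and Trpm5. Whether neighbours in these orders differ beyond the spread of libraries was not tested.

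In the ileum 5 of the 8 listed genes were lower by more than 2-fold (Dclk1, Pou2f3, Trpm5, Alox5ap and Kctd12) and none was higher, against 15% of all named genes lower and 15.4% higher by that margin. Their median difference was -1.29, beside -0.07 over all named genes. Among the 5260 named genes whose mean level lay in the range of the listed genes, 19.3% were lower and 19.6% higher by more than 2-fold. Fewer tuft cells, less of these mRNAs in each tuft cell and a changed share of other cells cannot be told apart in RNA of whole isolates. On a scale of log2(FPKM + 1), which compresses differences near or under 1 FPKM, none of the 5 genes passed 2-fold, and Kctd12 came closest at -0.96.

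In the colon 1 of the 5 listed genes (Trpm5) was lower and 1 (Avil) higher by more than 2-fold. The corresponding shares of all named genes were 8.28% and 7.21%, and in the level range of the listed genes 14.4% and 12.5%. The median difference was -0.19, beside -0.04 over all named genes, and it was 0.23 over the 3 listed genes (Avil, Plcg2 and Kctd12) that averaged 1 FPKM or more. On the log2(FPKM + 1) scale Trpm5 was within 2-fold, at -0.29. With 1 gene on either side, the colon counts do not set these genes apart from the background.

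**Figure D2:**
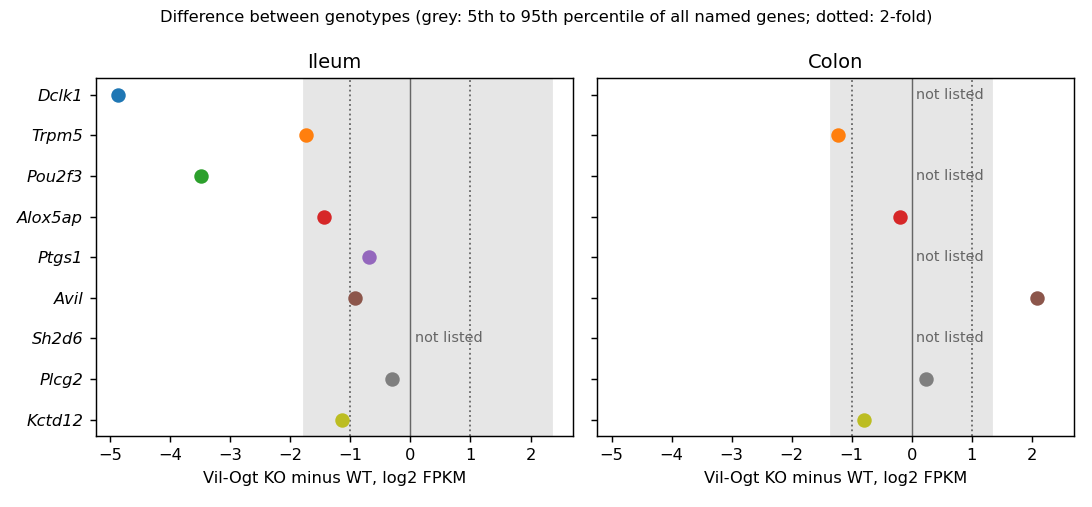
Difference of Vil-Ogt KO minus WT in log2 FPKM (horizontal axis) for each of the 9 genes (vertical axis) in ileum and colon; the grey band spans the 5th to the 95th percentile of all named genes and dotted lines mark 2-fold. Dclk1 (-4.88) and Pou2f3 (-3.49) lie outside the band in the ileum, and Avil (2.09) lies outside it in the colon.

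The 5 genes listed in both tables allow the tissues to be set side by side, with the caution that the tables were normalized separately and that the comparison has no test. In WT, Plcg2 stood 2.39 higher on the log2 scale in the ileum than in the colon, Alox5ap 1.84, Avil 1.20, Trpm5 0.68 and Kctd12 0.07. The median of these was 1.20, beside -0.08 over the 11866 gene entries present in both tables. In Vil-Ogt KO the median was 0.17, with Plcg2 still 1.86 higher in the ileum and Avil lower there by a difference of -1.82. The ileal excess of WT was thus smaller in Vil-Ogt KO for Plcg2, Alox5ap and Trpm5, and for Avil and Kctd12 the sign turned. The difference between genotypes was more negative in the ileum than in the colon for all 5 genes, by -0.35 for Kctd12 up to -3.02 for Avil, with a median of -0.53 beside -0.07 over all gene entries in both tables.

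Genes that act with the tuft cell genes were taken from 5 lists by role, 74 names in all. Of 48 measured in the ileum, 14 were lower and 12 higher by more than 2-fold (29.2% and 25%, beside 15% and 15.4% of all named genes); of 43 measured in the colon, 7 were lower and 7 higher (16.3% each, beside 8.28% and 7.21%). Past 4-fold, 10 were lower and 4 higher in the ileum, and the share of all named genes past 4-fold was not counted. Genes of these lists therefore lay on both sides, and the lists differed from each other. The shares of all named genes past 2-fold also stand beside the counts of each single list below. Among transcription factors 4 of 6 names were measured in the ileum. Spib, an Ets factor of tuft, M and B cells, was lower there, at log2 FPKM 2.52 in WT and -0.69 in Vil-Ogt KO. It was lower in the colon too, at 0.20 and -1.40. Hmx3 was listed at 0 in the Vil-Ogt KO ileum and at -1.39 in WT. The factor Gfi1b was listed in neither tissue.

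In the list of taste and succinate signalling, 4 of 6 measured genes were lower by more than 2-fold in the ileum and none was higher. In the colon 2 of 5 were lower. The shares of all named genes lower by that margin were 15% (ileum) and 8.28% (colon). At a mean of at least 1 FPKM, 3 of 5 were lower in the ileum and 1 of 3 in the colon. Gng13, the G protein gamma subunit of taste cells, had log2 FPKM 1.20 in WT and -2.19 in Vil-Ogt KO ileum. Rgs13, a regulator of G protein signalling, went from 1.87 to -2.49 in the ileum, a difference of -4.36. In the colon it was just past 2-fold (-1.01) and under 1 FPKM in both genotypes. Itpr2, an IP3 receptor that releases calcium, had ileal values of 0.78 and -0.43 and colonic values of 2.07 and -0.03. Itpr3, another IP3 receptor, and Gnb1, a G protein beta subunit, were within 2-fold in the ileum, at -0.28 and 0.85. Gng13 and Rgs13 were among the lower genes of the ileum together with Trpm5, to which the same cascade leads. Gnat3 and Plcb2, the G protein alpha subunit and phospholipase of that cascade, were listed in neither table.

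The eicosanoid list split in the ileum, with 3 of 9 measured genes lower and 2 higher by more than 2-fold. Alox5, the 5-lipoxygenase that Alox5ap serves, differed by -3.04 in the ileum (log2 FPKM -1.24 in WT and -4.28 in Vil-Ogt KO). Ltc4s, which makes leukotriene C4, differed by -1.35 (ileum) and -1.46 (colon). Lta4h, which makes leukotriene B4 and was the most abundant leukotriene gene measured, differed by 0.04 (ileum) and -0.27 (colon). Of the 4 leukotriene genes measured in the ileum, Alox5ap, Alox5 and Ltc4s were thus lower by more than 2-fold and Lta4h was not. The lower genes were at low levels, with Alox5 at 0.423 (WT) and 0.0515 FPKM (Vil-Ogt KO) and Ltc4s at 1.83 and 0.717. Lta4h stood at 123 and 126 FPKM. On a scale of log2(FPKM + 1) Alox5ap was within 2-fold, at -0.85. Pla2g4a, which frees arachidonic acid from membranes, differed by -1.49 (ileum) and -0.17 (colon). Hpgd, which breaks prostaglandins down, was higher in the ileum by 1.84. Hpgds, the prostaglandin D synthase of tuft and mast cells, was within 2-fold in the ileum (0.39) and just past it in the colon (1.01).

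Of the type 2 circuit, 1 of 8 measured genes was lower and 4 were higher by more than 2-fold in the ileum, and 3 of 8 were higher in the colon. Il25 and Il13 were listed in neither table. Il17rb, the IL-25 receptor chain that tuft cells carry as well, differed by 0.13 (ileum) and 1.22 (colon). Il4ra, the receptor chain shared by IL-4 and IL-13, was higher in both tissues, by 1.05 and 1.20. The alarmin Il33 was higher by 2.49 in the ileum, and Il2rg, the common cytokine receptor chain of lymphocytes, by 1.75. Retnlb, a goblet cell product induced by IL-13, differed by -6.06 (ileum) and -0.88 (colon).

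Among other genes of tuft cell signalling and structure, 4 of 21 measured were lower and 6 higher by more than 2-fold in the ileum, and 3 of 19 lower and 2 higher in the colon. Cbr3, a carbonyl reductase, differed by -5.56 (ileum) and -1.33 (colon). Tuba1a, a tubulin, was higher by 2.33 and 1.23 in ileum and colon, and Tspan6 was higher in the colon by 2.49. Ptprc, the pan-leukocyte antigen CD45 that tuft cells also carry in mice, was higher in the ileum by 2.16, and the phosphatase Ptpn6 of leukocytes by 1.19. Vil1, the villin of the brush border, was higher in the ileum by 1.68. Chat, which makes acetylcholine, was listed in neither table.

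**Figure D3:**
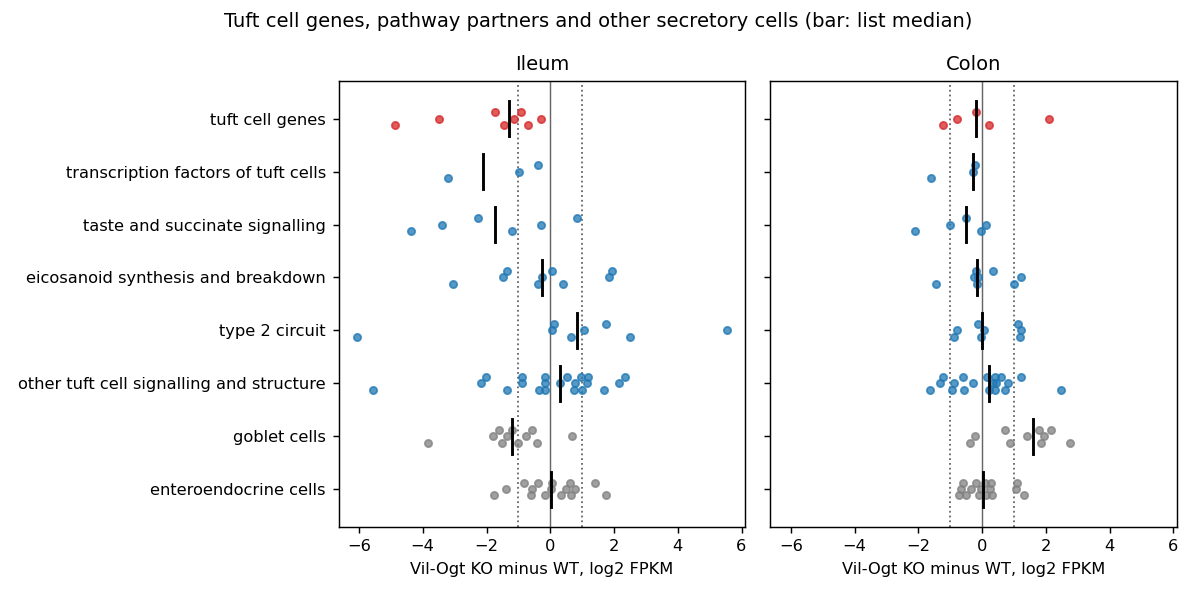
Difference of Vil-Ogt KO minus WT in log2 FPKM (horizontal axis) for every measured gene of the tuft cell genes, the 5 pathway lists and 2 lists of other secretory cells (vertical axis), in ileum and colon; a point is a gene, the bar the median of the list, and dotted lines mark 2-fold. Hmx3, listed at 0 in the Vil-Ogt KO ileum, and entries shared by several genes have no point. Of the 6 taste signalling genes of the ileum, 4 lie left of the 2-fold line.

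Goblet and enteroendocrine cells are secretory cells that arise from the same stem cells as tuft cells. In the ileum 7 of 11 goblet cell genes were lower by more than 2-fold and none was higher, a share of 63.6% beside 62.5% for the tuft cell genes. In the colon the lists went apart, with none of 10 goblet cell genes lower and 6 higher (median 1.61), beside 1 and 1 of the 5 tuft cell genes. Left out of this count was the entry that Clca1 shares with Clca2 and Clca4, which differed by -1.37 in the colon. Tff3 and Agr2, the most abundant goblet cell genes, had ileal differences of -0.56 and -1.81 and colonic differences of 1.95 and 0.73. Enteroendocrine genes had medians near 0 in both tissues (0.04 and 0.03). In the ileum 2 of 16 were lower, Chga (-1.40) and Chgb (-1.75), and 2 were higher, Neurog3 (1.41) and Gip (1.74). The hormone genes Pyy and Gcg differed by 0.01 and -0.60 there. In the colon 0 of 16 were lower and 3 higher. These lists have no test against the tuft cell genes.

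Cells other than tuft cells carry some of the genes, so markers of such cells were measured in the same tables. In the list of stromal, endothelial and muscle markers, 6 of 7 measured were lower by more than 2-fold in the Vil-Ogt KO ileum. The remaining one, the endothelial marker Pecam1, was within 2-fold (-0.53), and no muscle marker of the list was measured there. The summed level of the list was 28.3 FPKM in WT and 9.67 in Vil-Ogt KO, and Dcn and Col3a1 differed by -1.60 and -1.45. The defining markers Pdgfra, Cdh5, Acta2 and Myh11 were listed in neither table. In the colon 1 of 4 was lower and 1 higher, with sums of 3.76 and 4.92 FPKM. This list moved in the same direction as the tuft cell genes of the ileum, and its part in their levels was not tested.

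B cell markers, which bear on Plcg2 and Spib, were within 2-fold of WT in 7 of 8 measured in the ileum, with 1 higher, and summed to 17.0 FPKM in WT and 13.5 in Vil-Ogt KO; Igj and Cd79a differed by -0.56 and -0.47. In the colon 2 were measured and their sum went from 1.05 to 5.27 FPKM. Myeloid markers, which bear on Alox5ap, Alox5 and Ptgs1, were higher by more than 2-fold in 8 of 11 measured in the ileum and lower in 2 (Cd14 with -1.70 and Itgam with -2.13), and their sum went from 64.8 to 94.4 FPKM, opposite to the direction of those genes. In the colon their sums were 39.6 and 37.7 FPKM, and S100a8 and S100a9 were listed at 0 in WT only. Csf1r, Cx3cr1 and Csf3r were not listed.

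Mast cell markers were measured for 4 of 11 names in each tissue and summed to 15.9 (WT) and 19.8 FPKM for the ileum and to 9.51 and 23.9 for the colon. Mcpt1 went from log2 FPKM 2.58 to 3.59 and from 0.97 to 2.97, while Kit, which epithelial cells also carry, differed by -1.31 and 0.62. Cpa3, Fcer1a, Ms4a2 and Tpsb2 were not listed. T cell markers were higher by more than 2-fold in all 13 in the ileum, with sums of 107 and 576 FPKM, and lower in 5 of 12 in the colon, with sums of 67.1 and 28.6. Neuronal and glial markers, which bear on Dclk1, were listed for 1 of 12 names in the ileum and 3 in the colon, with sums of at most 3.29 FPKM. The part of these cells in the levels of the tuft cell genes was not tested.

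**Figure D4:**
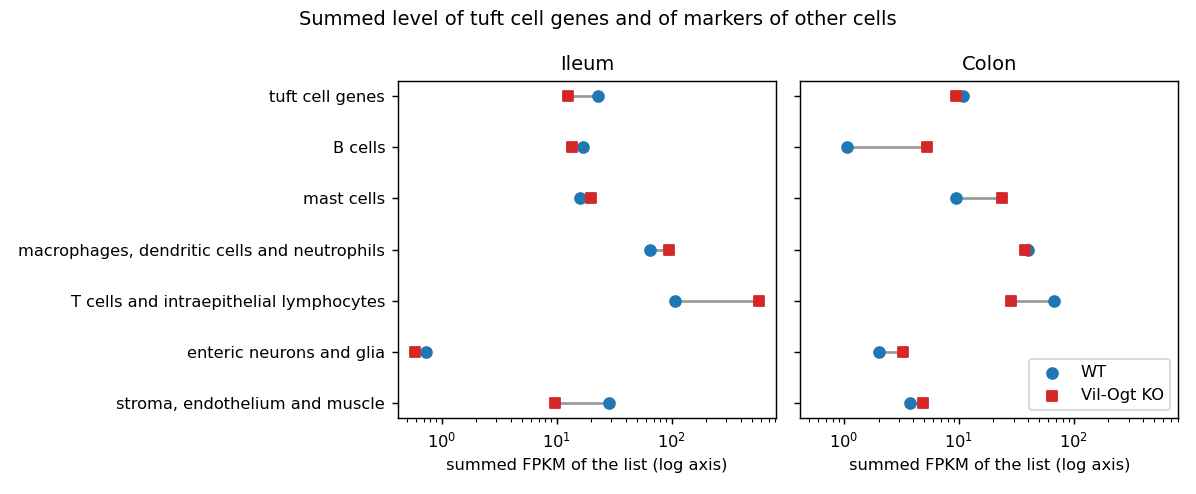
Summed FPKM (horizontal log axis) of the tuft cell genes and of marker lists of other cells (vertical axis) for WT (circles) and Vil-Ogt KO (squares) in ileum and colon. In the ileum the sums of tuft cell genes (22.7 to 12.6 FPKM) and of stroma (28.3 to 9.67) go down. That of T cells goes up there (107 to 576). The colonic sum of tuft cell genes (11.0 in WT and 9.45 in Vil-Ogt KO) joins opposite moves. Kctd12 (-0.79), Trpm5 (-1.23) and Alox5ap (-0.19) were lower in log2 FPKM, and Avil (2.09) and Plcg2 (0.23) were higher. Kctd12 and Plcg2, which are not restricted to tuft cells, weigh most in the WT sums of both tissues.

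Across the 4 values of ileum and colon, WT and Vil-Ogt KO, the non-member entries most like the median profile of the 5 genes listed in both tables were Spdl1, Pdia6, H2afx, the joint locus of Mir1892 and Sptssa, and Alg8, at Euclidean distances of 0.42 to 0.48 on the log2 scale after each profile was centred on its own mean. These are the nearest of 10403 entries with a mean of at least 1 FPKM in both tissues. With 4 values per gene, such likeness is a description only. The centred median profile falls in the colon, from -0.51 in WT to -0.70 in Vil-Ogt KO, whereas Avil and Plcg2 rose there by 2.09 and 0.23. Likeness of these entries to single tuft cell genes was not measured. Spdl1, a spindle protein gene, for example had log2 FPKM 3.24 and 1.42 in WT and Vil-Ogt KO ileum and 1.80 and 1.49 in the colon.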

How the data were processed

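RNA of IECs from ileum and colon was sequenced by the authors as 11 libraries. According to the methods and the submitters' processing notes, reads were trimmed with Trimmomatic, mapped to mm10 with TopHat (version 1.0.0) and Bowtie, and quantified with Cufflinks. The deposited values are log2 FPKM, 1 per genotype and locus, with a locus at 0 FPKM listed at -10; depth per library is unknown. Each table also holds 3 columns of the authors' own comparison (log2 ratio, q-value and a mark for significance), which were not used, so the design has no test. The column headers name a control and a comparison, read as WT and Vil-Ogt KO. Unnamed loci (21.2% of the ileal and 26.6% of the colonic table) were left out. Of loci with the same entry the one with the highest mean was kept. Entries shared by several genes were left out of the list counts. Differences are Vil-Ogt KO minus WT in log2 FPKM, a gene was counted as lower or higher past 2-fold, and counts were read against all named genes. Coordinates are 1-based.

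The genes and lists were chosen with earlier results of these data known. Named were all 9 tuft cell genes, pathway genes past 2-fold with a mean of at least 1 FPKM (1 of which is not reported here), 11 partners irrespective of value, and the 2 most abundant markers of each other cell type; Krt8, Lta4h, Hmx3, S100a8, S100a9, Tsfm, Gm26778 and markers that were not listed were named after their values were seen. The counting steps were tested on simulated data. Alternatives were log2(FPKM + 1), a minimum level, summed loci, centring and folds of 1.5 and 4. Python 3.11.15, NumPy 2.4.6, pandas 2.3.3 and matplotlib 3.10.9 were used.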

Additional observations from a re-analysis of the deposited data

Results flagged for a closer look

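Avil and Plcg2 were flagged because their values moved in opposite directions in the 2 tissues, lower in the Vil-Ogt KO ileum and higher in the Vil-Ogt KO colon. For Avil the differences were -0.93 and 2.09, and for Plcg2 they were -0.30 and 0.23, in log2 FPKM. With 1 value per genotype and tissue, the difference between the tissues was not tested.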

How the results depend on the processing

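No paired analysis was possible because the tables hold 1 value per genotype, so that the replicate numbers of the libraries have no values of their own; for the same reason no library was left out. Centring on the median of all genes and summing of loci kept all 13 single gene differences on their side of 2-fold, whereas log2(FPKM + 1) moved 6 of 13, since most of these genes lie near 1 FPKM. On that scale the median difference of the ileum went from -1.29 to -0.61, that of WT ileum against WT colon from 1.20 to 0.55, and no gene was lower past 2-fold in either tissue (0 in place of 5 and 1). Pathway genes past 2-fold then numbered 7 lower and 7 higher in the ileum (14 and 12 before) and 2 and 2 in the colon (7 and 7 before). At a mean of at least 1 FPKM, 2 tuft cell genes of the ileum and 0 of the colon were lower, with 9 pathway genes lower and 8 higher in the ileum and 2 lower and 4 higher in the colon. At 4-fold the tuft cell genes lower numbered 2 and 0, and pathway genes 10 lower and 4 higher in the ileum and 1 lower and 1 higher in the colon. At 1.5-fold, 2 tuft cell genes and 12 pathway genes were lower in the colon. The median of the colon turned from -0.19 to 0.23 at a mean of at least 1 FPKM, where 3 of 5 genes were left. No difference past 2-fold changed its sign under these alternatives. The background in the level range of the tuft cell genes was added after seeing the data. Shares of all named genes were counted at 2-fold on the main scale only, so counts under the alternatives have no matching share.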
